A study of Homo sapiens and Mus musculus with 25 samples.

Results

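MYC, PVT1 and GSDMC are the 3 genes described here, with the space around them on chromosome 8 (GRCh38/hg38). They were taken by name and position, not by any measured value, out of 38726 protein-coding and lncRNA genes with a start site in the annotation. Their neighbourhood was read from 0.5 Mb before to 2.2 Mb after the MYC start site, chr8:127236231-129936230, as 54 bins of 50 kb among 60607 such bins in the genome. The data were peak lists, meaning intervals of the genome called as enriched after immunoprecipitation of a histone mark, all from K562 cells. K562 is an established line of erythroid-like leukaemia cells that carries the BCR-ABL1 fusion.

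Each library was a calibrated ChIP (ICeChIP), in which barcoded nucleosomes of known modification are added to the chromatin before the pull-down. No treatment or genotype differed between the K562 libraries, and the groups compared were antibodies by the methylation state of histone H3 lysine 4 they were sold to recognise. There were 5 lists for H3K4me1, 4 for H3K4me2 and 8 for H3K4me3, with 1 antibody per list. A further 3 lists, called corrected by the submitters, give each methylation state after a computation on the libraries of Abcam ab8895, Abcam ab7766, Abcam ab12209 and Abcam ab8580. H3K27me3 (Cell Signaling Technology 9733) and H3K9me3 (309M3B) had 1 list each, so they and the corrected lists have no replicate and no test. No label ties a library to a culture of its own, and the p-values below reflect how antibodies to one target vary, which may be technical. Read depth behind the peaks is unknown, because the lists hold no read counts.

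MYC encodes a basic helix-loop-helix transcription factor that pairs with MAX and drives growth genes, and it is a proto-oncogene in many leukaemias. PVT1, directly downstream, makes a long non-coding RNA from a gene whose body holds several enhancers of MYC in other studies. GSDMC encodes a gasdermin, a protein that can form pores in membranes once cleaved. The space between PVT1 and GSDMC holds lncRNA genes, CCDC26 among them, and is called a gene desert because it is poor in coding genes. H3K4me3 is typical of promoters that initiate transcription and H3K4me1 of enhancers and of promoter flanks, with H3K4me2 in both. H3K27me3 is the mark of Polycomb repression, and H3K9me3 that of constitutive heterochromatin.

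MYC (ENSG00000136997.22, forward strand) spans chr8:127735434-127742951, and its canonical transcript starts at 127736231. PVT1 (ENSG00000249859.14, forward strand) spans chr8:127794526-128187101 and starts 58.3 kb further on. Its 392.6 kb hold 10 introns in the canonical transcript, which make up 390.1 kb. GSDMC (ENSG00000147697.9, reverse strand) spans chr8:129748196-129786624, with its start site 2.05 Mb from that of MYC. Between the end of PVT1 and GSDMC lie 1561 kb, named the desert here. A promoter was the 1 kb on either side of the start site, 2000 bases in all. MYC and PVT1 promoters hold 124 and 120 CpG dinucleotides against a median of 96 over coding promoters, while the GSDMC promoter holds 19, more than only 9.04% of coding promoters.

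MYC's promoter was under a peak in all 8 H3K4me3 lists and all 4 H3K4me2 lists, and in each of these the whole 2000 bases were covered. H3K4me1 lists were divided. Active Motif 39635 and EpiGentek A-4031-050 covered 100% of it, Abcam ab8895 covered 37.7%, and Cell Signaling Technologies 5326 BF and Thermo Fisher 710795 covered 0%. In these last 3 lists H3K4me1 peaks stopped on both sides of the start site and left a gap that measured 2.52 kb for Abcam ab8895, 2.71 kb for Cell Signaling Technologies 5326 BF and 3.62 kb for Thermo Fisher 710795. The corrected H3K4me1 list had a gap of 3.60 kb at the same place. Mean coverage was 47.5% ± 50.3 (SD, n = 5 antibodies) for H3K4me1 against 100% ± 0 for each other target, a difference within the spread between antibodies (adjusted p = 0.129 against H3K4me3 and 0.357 against H3K4me2, exact two-sided permutation tests with Benjamini-Hochberg adjustment over 24 tests). In all, MYC held a promoter peak in 15 of 17 H3K4 lists, and 44% of 19970 coding promoters did so in at least as many. A peak in all 8 H3K4me3 lists was found at 31.1% of coding promoters.

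H3K4me3 peaks at MYC were wide and high within their lists. Widths ran from 6.08 kb in Abcam ab12209, through a median of 6.87 kb, to 14.5 kb in Abcam ab8580. In every list the MYC peak was among the widest (wider than 99.2% of the peaks in EpiGentek A-4033-050, the lowest rank), and it reached further into the gene than upstream, from 2.04 kb before the start site to 4.15 kb after it in Thermo Fisher PA5-40086, for example. The authors gave each peak a value in 5 of these lists, and at MYC it was 36.2 in Abcam ab12209, 46.1 in Thermo Fisher PA5-40086, 47.1 in EMD Millipore 05-745R, 56.3 in EMD Millipore 07-473 and 63.4 in Abclonal A2357. These values ranked above 78.3% to 99.7% of the peaks of their own list. H3K4me2 peaks at MYC had values from 20.7 to 26.5 and widths from 8.05 kb (EMD Millipore 05-1338) to 51.2 kb (Cell Signaling Technologies 9725).

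**Figure D1:**
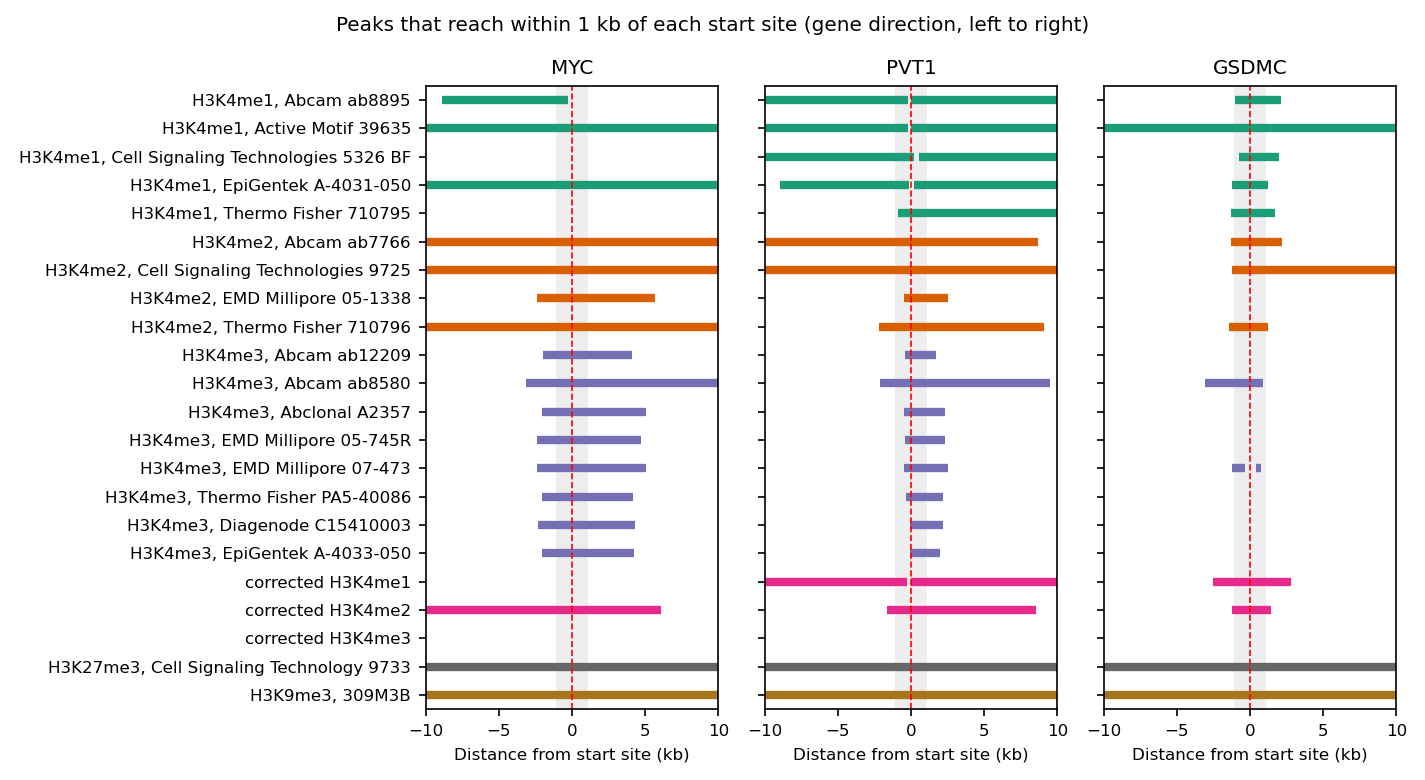
Extents of the peaks that reach within 1 kb of the MYC, PVT1 and GSDMC start sites, with 1 row per list and distance from the start site in kb along the gene's direction (cut at 10 kb; grey band, promoter; dashed line, start site). All 8 H3K4me3 rows and all 4 H3K4me2 rows cover the MYC start site. PVT1's H3K4me1 rows, except Thermo Fisher 710795, break at or near the PVT1 start site, and GSDMC is under H3K4me1 in all 5 rows but under H3K4me3 in 2.

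PVT1's promoter had a peak in 17 of 17 H3K4 lists, which held for 9.33% of 18756 lncRNA promoters and 27.9% of coding ones. H3K4me1 lists covered 82.1% to 93.5% of it (87.4% ± 4.59, n = 5). H3K4me2 covered 100% in 3 lists and 72.7% in EMD Millipore 05-1338 (93.2% ± 13.7, n = 4). H3K4me3 covered 51.7% at the lowest, 70.7% at the median and 100% at the highest, Abcam ab8580 (69.5% ± 15.1, n = 8). The ranges for H3K4me1 and H3K4me3 overlapped only through Abcam ab8580, but the difference of 17.9 percentage points did not pass the adjusted threshold (adjusted p = 0.0704, exact permutation test). It was 23.6 points with Abcam ab8580 and EMD Millipore 07-473 left out, a choice made after the values were seen (adjusted p = 0.0173, exact permutation test), and -3.82 points when the promoter was taken as 0.5 kb on either side. H3K4me3 peaks lay mostly on the gene side of the PVT1 start, for example from 0.033 kb before to 1.97 kb after it in EpiGentek A-4033-050. H3K4me1 left a short gap of 0.206 kb in Abcam ab8895, 0.240 kb in Active Motif 39635 and 0.327 kb in EpiGentek A-4031-050, where MYC's gaps were measured in kilobases.

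H3K4me3 peaks were narrower at PVT1 than at MYC in all 8 lists, from 2.00 kb to 11.6 kb. The authors' values at PVT1 were also lower than at MYC in each of the 5 lists that give them, with 17.0 in Abcam ab12209, 18.3 in Thermo Fisher PA5-40086, 26.1 in EMD Millipore 05-745R, 32.2 in Abclonal A2357 and 35.4 in EMD Millipore 07-473. They ranked above 31.6% to 96.6% of their lists, and in Abcam ab12209 (31.6%) and Thermo Fisher PA5-40086 (34.3%) the PVT1 peak was below the list's middle. H3K4me1 peaks at PVT1 had values from 19.0 to 36.3 and ranked above 89.7% to 99.1% of theirs.

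GSDMC's promoter showed another pattern, with H3K4me1 in every list and H3K4me3 in few. All 5 H3K4me1 lists held a peak over its start site, covering 88.4% of the promoter in Cell Signaling Technologies 5326 BF and 100% in the other 4. H3K4me2 covered 100% in 3 lists and 0% in EMD Millipore 05-1338. H3K4me3 covered 93.8% in Abcam ab8580, 49.9% in EMD Millipore 07-473 and 0% in the other 6. Thus H3K4me1 and H3K4me3 lists did not overlap except through Abcam ab8580, and H3K4me1 exceeded H3K4me3 by 79.7 points (97.7% ± 5.21, n = 5, against 18.0% ± 35.3, n = 8; adjusted p = 0.0186, exact permutation test). That call was lost among the 15 libraries with the first input run (adjusted p = 0.0519, exact permutation test) and without peaks over 100 kb (59.7 points, adjusted p = 0.124, exact permutation test). In total 10 of 17 lists held a GSDMC promoter peak, and 64.5% of coding promoters had a peak in at least 10. The authors' values were 9.28 to 30.3 for H3K4me1, where the highest belonged to a 298 kb peak of Active Motif 39635, and ranked above 62.6% to 88.0% of the peaks of their own list. The 2 H3K4me3 peaks of EMD Millipore 07-473 had values of 7.52 and 8.20 and ranked above 46.7% and 59.5% of theirs.

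At these promoters corrected H3K4me1 and corrected H3K4me2 lay within the range of the antibody lists for the same target. Corrected H3K4me3 lay below that range at MYC and PVT1 and within it at GSDMC. Corrected H3K4me1 covered 0% of the MYC promoter, 87.4% of PVT1's and 100% of GSDMC's. Corrected H3K4me2 covered 100% of all 3. Corrected H3K4me3 covered 0% of all 3, and its nearest peaks lay 16.2 kb from the MYC start, 74.5 kb from that of PVT1 and 12.0 kb from that of GSDMC. Absence there was not particular to MYC and PVT1, since the list held a peak at only 18.1% of all coding promoters and at 44.2% of the coding promoters with a peak in all 8 H3K4me3 lists, and at 38.0% of such lncRNA promoters, which are 10.4% of all lncRNA promoters. In the whole window the corrected H3K4me3 list had 22 peaks, 201 to 600 bases wide with authors' values of 7.00 to 17.4. None of the 22 overlapped a peak of the 6 H3K4me3 lists other than Abcam ab8580 and EMD Millipore 07-473, nor did 93.4% of the list's 48459 peaks genome-wide. What sets this list apart from the antibody lists was not tested, and with so little overlap it is uncertain that the list holds the H3K4me3 its name gives. Each corrected H3K4me3 value here is that of the deposited list and was not read as absence of the mark.

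Genes whose promoters were covered most like these 3 over the 22 lists were found by the mean absolute difference in covered percent. For MYC they were H2AC21, IGF2BP3 and H2AC11 (2.11, 2.80 and 2.98 points, against a median of 42.9 over all genes compared). H2AC21 and H2AC11 encode H2A histones, and IGF2BP3 an RNA-binding protein. For PVT1 they were TTC27, PARP12 and ZNF782 (4.23, 4.39 and 4.70 points, median 30.1). For GSDMC they were CPA4, a carboxypeptidase, FOLR2, a folate receptor, and MS4A2, a chain of the IgE receptor (1.06, 1.18 and 1.54 points, median 37.0).

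Other promoters in the window divided the same way. CASC11, a lncRNA that starts 2.26 kb upstream of MYC, and CCDC26, a lncRNA 1.84 Mb downstream, had a peak in 17 of 17 H3K4 lists. CCDC26 was under H3K4me3 for 89.6% of its promoter on average although this holds only 14 CpG. LINC02912 had a peak in 11 lists, LINC00824 in 10, CASC8 in 8 and CCAT2 in 6. POU5F1B, a retrogene of the pluripotency factor OCT4 that lies 320 kb upstream, had one in 3 lists, all H3K4me1. All 10 named promoters of the window, those of MYC, PVT1 and GSDMC included, lay under H3K27me3 and H3K9me3 peaks, and none under corrected H3K4me3. On chromosome 8 the shares under H3K27me3 were 97.4% of coding and 99.8% of lncRNA promoters, and under H3K9me3 96.9% and 99.8%. Corrected H3K4me3 lay at 15.2% and 5.21% of them. These counts therefore do not set the window apart.

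Of 12 genes of the MYC network, 6 had a promoter peak in all 17 lists (MYCL, MXD1, MXD3, MXD4, MGA and MLXIP), where 27.9% of all coding promoters did, with a median of 16.5 lists against 13 over all coding genes. MYC's partner MAX had a peak in 14 lists, its paralogue MYCN in 8 and the repressor MNT in 4. Corrected H3K4me3 was present at 2 of the 12, MXD4 and MLXIP, beside 18.1% of all coding promoters. Among the other 5 gasdermin family genes, GSDMA had a peak in 9 lists, GSDMB in 11, GSDMD in 12, GSDME in 15 and PJVK in 17, and all 5 were under H3K4me1 in all 5 lists, as were GSDMC and 60.8% of all coding promoters. The cell line label was checked on promoters of erythroid genes, of which these are reported: TAL1, KLF1, TFRC and HBG1 had peaks in 17 lists and GATA1 in 16. Of the lymphoid genes, PAX5 had a peak in 1 list and CD3D in 16.

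Over the whole 2.7 Mb, H3K4me1 peaks covered most of the bases. Thermo Fisher 710795 covered 61.8%, EpiGentek A-4031-050 72.5%, Abcam ab8895 78.0%, Cell Signaling Technologies 5326 BF 79.7% and Active Motif 39635 97.0%. H3K4me2 lists ran from 8.72% (EMD Millipore 05-1338), through 56.0% (Thermo Fisher 710796) and 81.2% (Abcam ab7766), to 90.5% (Cell Signaling Technologies 9725). H3K4me3 lists covered 0.721% at the lowest and 1.60% at the median, with EMD Millipore 07-473 at 15.1% and Abcam ab8580 at 61.2%. H3K4me1 exceeded H3K4me3 by 67.3 points (77.8% ± 12.8, n = 5, against 10.5% ± 21.1, n = 8; adjusted p = 0.0124, exact permutation test), and the lowest H3K4me1 list stood just above Abcam ab8580. That call was lost without peaks over 100 kb (46.8 points, adjusted p = 0.0746) and among libraries of 8 amplification cycles alone (61.6 points, adjusted p = 0.0635), by the same exact permutation test. Among the 8-cycle libraries the H3K4me1 and H3K4me3 lists still did not overlap. The unadjusted p-value there was thus the smallest that so few antibodies allow. H3K4me2 (59.1% ± 36.6, n = 4) did not pass against either target (adjusted p = 0.481 and 0.0606, exact permutation tests). Of the 24 comparisons of targets 5 passed, all H3K4me1 against H3K4me3, and 12 had an unadjusted p under 0.05 by the same exact permutation tests.

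Lists differ in length across the whole genome, so the window was also set against the rest of chromosome 8. Every one of the 17 H3K4 lists covered more of the window, by 1.38 times (Abcam ab12209) to 3.42 times (Thermo Fisher 710796). On the log2 scale the 5 H3K4me1 lists had a ratio of 1.13 ± 0.31, the 4 H3K4me2 lists 1.36 ± 0.41 and the 8 H3K4me3 lists 0.98 ± 0.37 (SD over antibodies), and no pair of targets differed beyond the spread between antibodies (adjusted p from 0.249 to 0.561, exact permutation tests). Among 1111 stretches of 2.7 Mb laid end to end over the genome, 85.0% to 97.1% were less covered than the window in H3K4me1 lists, 93.2% to 99.4% in H3K4me2 lists and 65.4% to 98.1% in H3K4me3 lists. In 10 of the 17 lists, 4 of them H3K4me1, 4 H3K4me2 and 2 H3K4me3, none of chromosome 8's 53 stretches was more covered. The corrected lists gave 75.8% for H3K4me1, 2.45 times the rest of the chromosome, 35.3% for H3K4me2 at 4.29 times, and 0.248% for H3K4me3 at 0.580 times.

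**Figure D2:**
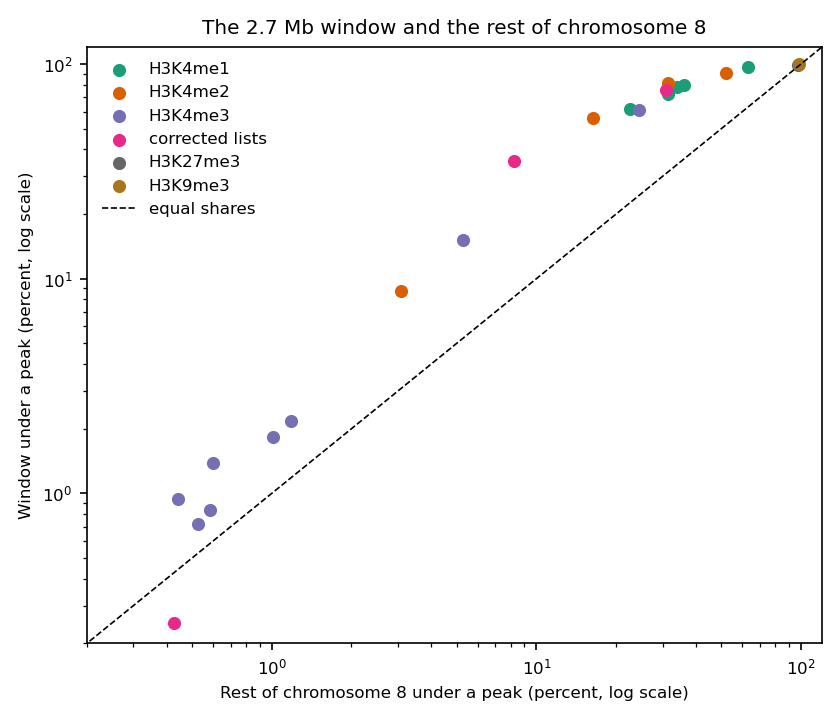
Percent of the 2.7 Mb window under a peak against percent of the rest of chromosome 8, both on log scales, with 1 point per list and the dashed line at equal shares. All 17 H3K4 points lie above the line, by 1.38 to 3.42 times, corrected H3K4me3 lies below it, and H3K27me3 and H3K9me3 sit on it near 100%.

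Coverage was uneven along the window. Upstream of MYC, H3K4me1 covered 16.9% at the lowest, 43.1% at the median and 97.5% at the highest (47.8% ± 30.2, n = 5), and in the short space between MYC and PVT1 it covered 83.1% to 99.2%. PVT1's introns were almost wholly under H3K4me1, from 96.3% to 99.7% (98.7% ± 1.39, n = 5). In the desert H3K4me1 covered 66.9% to 95.7% (81.4% ± 10.5, n = 5). The low stretch of the desert was 0.95 to 1.05 Mb from MYC, where the bins' H3K4me1 means were 43.3% and 36.6%, and coverage came back to 99.6% in the bin at 1.65 Mb.

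PVT1's introns were more covered than the desert in 17 of 17 H3K4 lists, by 10.6 points ± 8.72 (54.5% against 43.9%). A two-sided permutation test by sign flips over the 17 lists gave p = 2.0e-05 (100000 resamples). By target the mean difference was 17.4 points for H3K4me1, 13.6 for H3K4me2 and 4.87 for H3K4me3. The lists read different marks at the same locus in the same cell line, so they are not independent replicates. That p-value reflects only how far the lists agree in sign. With every peak over 100 kb removed, the mean difference over the 17 lists was -13.1 points (p = 0.0736, permutation test by sign flips). The 7 lists with such a peak in the window, 5 of H3K4me1 and 2 of H3K4me2, then ran from -69.4 to -19.3 points. The other 10 lists have none there and kept their differences of 0.805 to 20.8 points. PVT1's introns also exceeded the space upstream of MYC in 17 of 17 lists. In H3K4me2 lists the introns were 23.4% covered in EMD Millipore 05-1338, 84.3% in Thermo Fisher 710796, 98.9% in Abcam ab7766 and 99.8% in Cell Signaling Technologies 9725. In H3K4me3 lists they were covered 1.26% at the lowest, 3.98% at the median and 81.6% in Abcam ab8580, the highest. H3K4me1 exceeded H3K4me3 by 83.0 points in the introns (adjusted p = 0.0124) and by 70.5 points in the desert (adjusted p = 0.0124), by exact permutation tests with n = 5 and 8. Both calls were lost without peaks over 100 kb, with 13.5 points (adjusted p = 0.599) and 58.4 points (adjusted p = 0.0746), and among libraries of 8 amplification cycles alone, with 74.9 and 64.5 points (both adjusted p = 0.0635, exact permutation tests). In both stretches the 8-cycle H3K4me1 and H3K4me3 lists still did not overlap, so the unadjusted p-values could not have been lower.

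**Figure D3:**
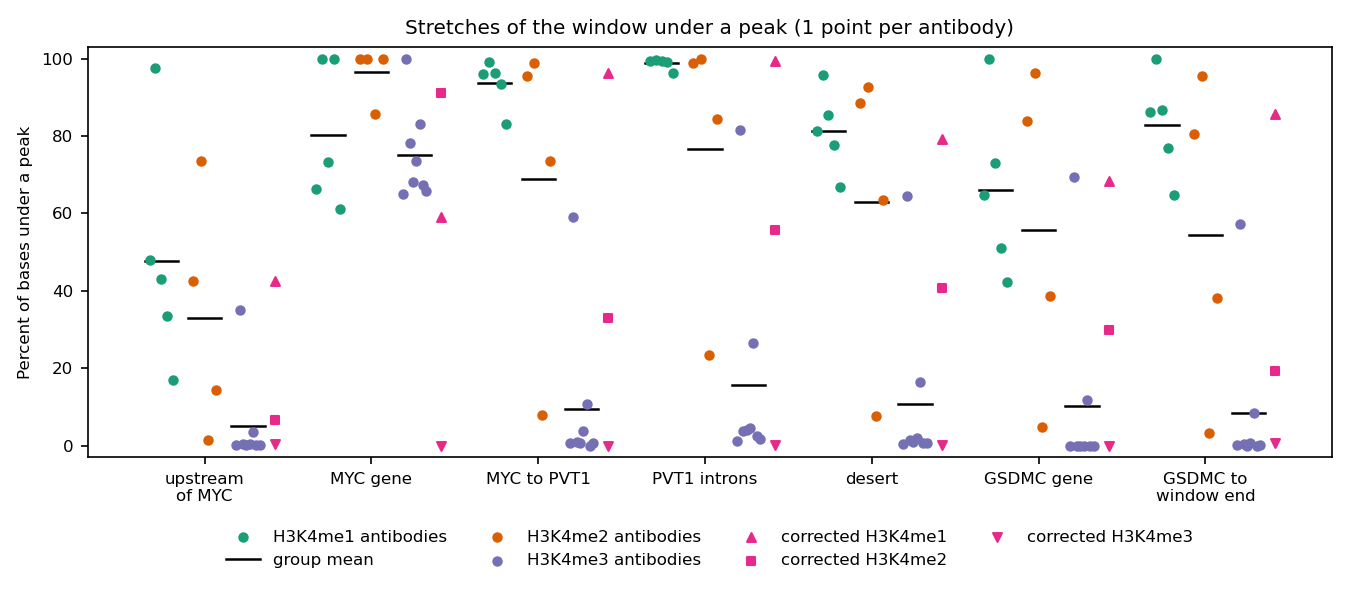
Percent of the bases of 7 consecutive stretches of the window under a peak, with 1 point per antibody, group means as bars and the 3 corrected lists beside them. PVT1 introns are 96.3% to 99.7% covered by H3K4me1, the space upstream of MYC is 16.9% to 97.5% covered, and outside the MYC gene the H3K4me3 points of Abcam ab8580 and, less so, EMD Millipore 07-473 (26.5% of the introns) lie above the other 6.

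Within PVT1 the H3K4me3 peaks were not spread evenly. Intron 1, only 1.16 kb long and next to the promoter, was wholly covered in all 8 H3K4me3 lists and all 4 H3K4me2 lists. Leaving aside Abcam ab8580 and EMD Millipore 07-473, the other 6 H3K4me3 lists all had peaks in introns 2 and 4, and 4 of the 6 in introns 3 and 7. They had none in introns 5, 6, 8 and 9, and 1 list had a peak in intron 10. Intron 4 (chr8:127989292-128070159) was the most covered of the long introns in these 6 lists, at a mean of 7.80%, against 1.24% in intron 2 and 2.80% in intron 3. H3K4me1 covered 100% of introns 3, 4 and 8 in all 5 lists, and the lowest single values were 69.1% in intron 1 (Cell Signaling Technologies 5326 BF) and 81.0% in intron 6 (Thermo Fisher 710795). Corrected H3K4me1 covered 99.3% of the introns, corrected H3K4me2 55.6% and corrected H3K4me3 0.176%.

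**Figure D4:**
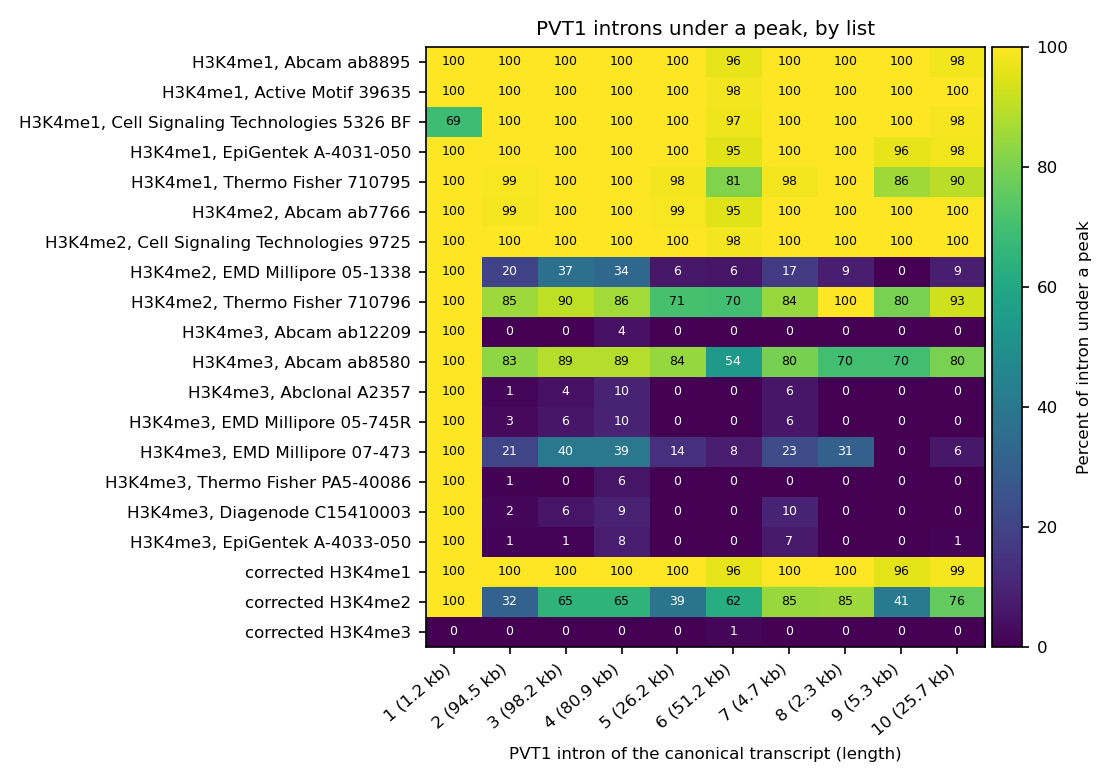
Percent of each of the 10 PVT1 introns under a peak (colour and printed value) in the 17 H3K4 lists and the 3 corrected lists, with intron lengths in kb. H3K4me1 rows are mostly near 100%, with 69.1% in intron 1 of Cell Signaling Technologies 5326 BF and 81.0% in intron 6 of Thermo Fisher 710795 the lowest, and the narrow H3K4me3 rows show intron 1 at 100% and intron 4 with a mean of 7.80%.

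Bin by bin, H3K4me1 peaks were found in all 54 bins of the window in all 5 lists, while H3K4me3 peaks were found in 24.1 ± 19.0 bins (n = 8), a difference of 29.9 bins (adjusted p = 0.0448, exact permutation test). This call was lost when any 1 of the 5 H3K4me1 and 8 H3K4me3 libraries other than Abcam ab8580 was left out (highest adjusted p = 0.0727, exact permutation test). Over the genome the share of bins with an H3K4me1 peak was 60.3% for Active Motif 39635, 76% for Abcam ab8895, 76.7% for Thermo Fisher 710795, 81.9% for Cell Signaling Technologies 5326 BF and 83.3% for EpiGentek A-4031-050. H3K4me3 counts ran from 9 bins in Abcam ab12209 and Thermo Fisher PA5-40086, 16.7% of the window where the genome's shares were 16.9% and 18.1%, to 53 in EMD Millipore 07-473 (72.7% of bins in the genome) and 54 in Abcam ab8580 (81.9%). The other 4 H3K4me3 lists had peaks in 10 bins (EpiGentek A-4033-050, 14.6% of bins in the genome), 13 (Diagenode C15410003, 17.4%), 19 (Abclonal A2357, 26.4%) and 26 (EMD Millipore 05-745R, 31.3%). Of the 54 bins 7 held a peak in all 17 H3K4 lists, when 10.2% of bins in the genome did. Of these, 3 lie from 50 kb before to 100 kb after the MYC start and so hold MYC, CASC11 and PVT1's promoter. The others start at 300, 600, 1800 and 1950 kb from the MYC start. The 6 H3K4me3 lists other than Abcam ab8580 and EMD Millipore 07-473 had no peak at all in 24 of the 54 bins. The genome's share of such bins was not computed, so that count does not set the locus apart. Each of these lists alone had a peak in only 14.6% to 31.3% of bins in the genome.

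The bin at 1.80 to 1.85 Mb, which holds the CCDC26 promoter, had the highest H3K4me3 coverage of the window. Those 6 H3K4me3 lists covered 10.6% to 28.6% of it (mean 19.1%), and the 5 H3K4me1 lists had a mean of 99.8%. Corrected H3K4me2 covered 84.9%. Next came the bin at 0.30 to 0.35 Mb, inside PVT1, where the 6 lists covered 7.2% to 16.3% (mean 12.6%), more than in the MYC bin itself (mean 9.5%). The bin at 1.95 to 2.00 Mb followed with 1.5% to 15.4%. At 0.15 to 0.20 Mb, also inside PVT1, the 6 lists differed from 0% in Abcam ab12209 and Thermo Fisher PA5-40086 to 11.5% in EMD Millipore 05-745R.

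**Figure D5:**
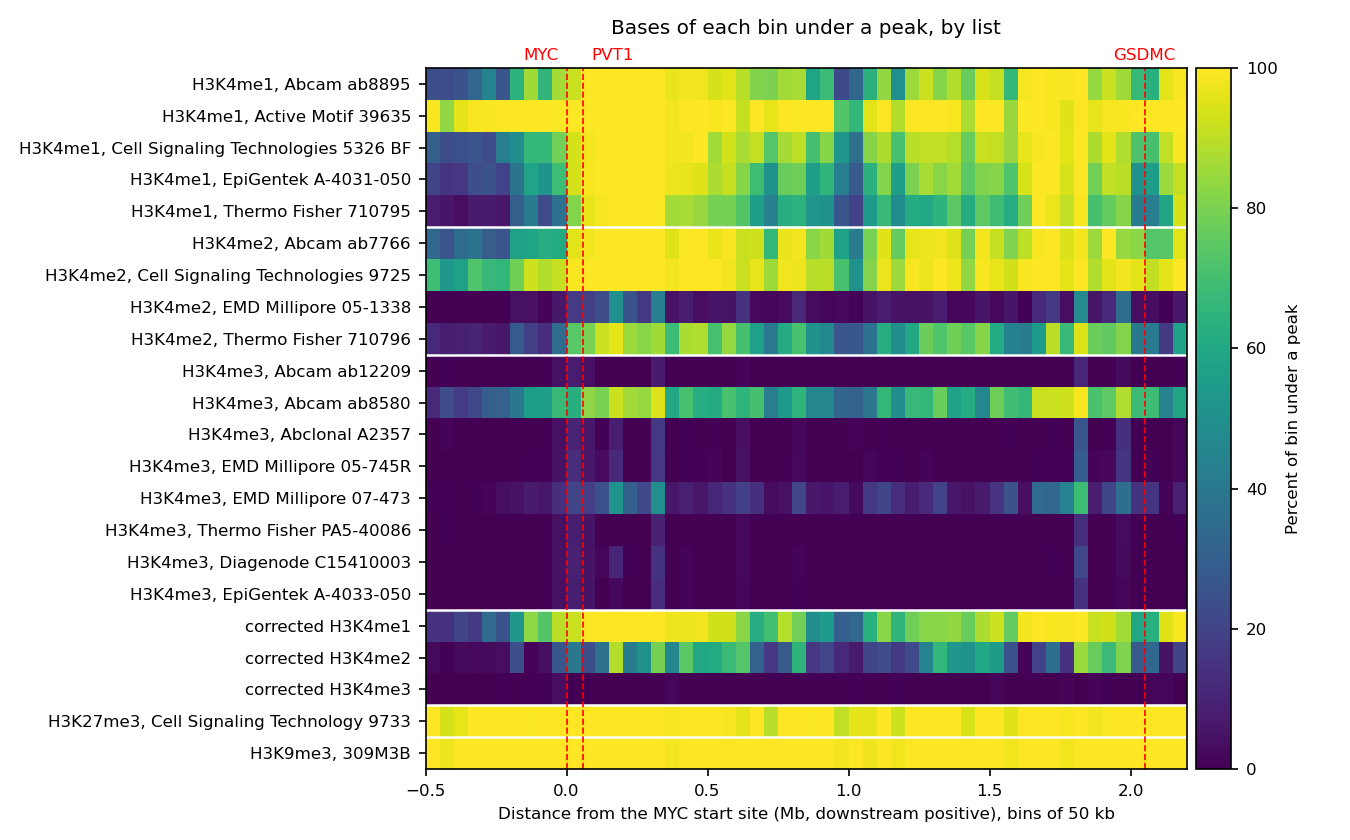
Percent of each 50 kb bin under a peak (colour) by distance from the MYC start site in Mb, with 1 row per list and dashed lines at the 3 start sites. Mean H3K4me1 coverage is 74.1% in the last bin before MYC, 95.3% at the lowest across the bins from 50 to 500 kb, and 36.6% in the bin at 1 Mb, and narrow H3K4me3 lists show columns at 0.3 and 1.8 Mb.

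Of the window's bases 0.465% (12568 bases) were under all 17 H3K4 lists and 2.23% under none. The share under all 17 could not exceed the 0.721% covered by Abcam ab12209, the list that covered least of the window. The genome's shares were not computed, so neither these shares nor the stretches below set the locus apart. At least 1 kb from every annotated start site, 4 stretches were under all 17 lists. One, chr8:128343687-128344126 (440 bases), lies 0.608 Mb downstream of MYC, in an intron of an unnamed lncRNA gene and 20.6 kb from the nearest start site. Its H3K4me3 peaks were 0.453 to 5.62 kb wide with authors' values of 21.6 to 30.3 in 5 lists, higher than at PVT1's promoter in 2 of these lists and lower in the other 3. Its H3K4me1 values ran from 18.4 to 31.8 in 5 lists and its H3K4me2 values from 19.6 to 30.3 in 4.

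Another, chr8:129690547-129691087 (541 bases), lies 1.95 Mb downstream in an exon of an unnamed lncRNA gene, 6.78 kb from the nearest start site. It stands out for H3K4me1, with values of 34.0 to 46.3 in 5 lists and peaks about 24.7 kb wide in 4 of them. Its H3K4me3 values were lower, from 7.76 to 23.8 in 5 lists. The remaining pair, chr8:129569557-129570057 (501 bases) in intron 1 of CCDC26 and chr8:127740074-127740313 (240 bases) in intron 2 of MYC, are each just over 1 kb from an annotated start site. In all 8 H3K4me3 lists the MYC stretch is part of the MYC promoter peak. Corrected H3K4me1 and corrected H3K4me2 covered all 4 stretches in full, and corrected H3K4me3 none of them.

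H3K27me3 and H3K9me3 peaks covered nearly the whole window, 98.7% and 99.7%, including all of the MYC, PVT1 and GSDMC promoters. Neither value sets the locus apart, because the rest of chromosome 8 was covered at 97.0% and 97.9%, and the whole genome at 66.9% and 93.5%. H3K27me3 peaks lay at 73.9% of coding promoters and 97.4% of those on chromosome 8, and H3K9me3 peaks at 98.7% of all. Of coding promoters with a peak in all 17 H3K4 lists, 88.9% lay under H3K27me3 and 100% under H3K9me3. Of those with a peak in 0 of the 17, the shares were lower, 32.2% and 83.2%. A peak in either list was therefore not read as repression of these genes. MYC and PVT1 start within the same H3K27me3 peak of 487 kb and the same H3K9me3 peak of 800 kb, and GSDMC within an H3K27me3 peak of 338 kb and an H3K9me3 peak of 2278 kb. H3K27me3 overlapped corrected H3K4me1 over 75.6% of the window and H3K9me3 over 75.7%, where corrected H3K4me1 alone covered 75.8%. With nearly every base under H3K27me3 and H3K9me3, that overlap could hardly have been smaller, and nothing is drawn from it. Over the genome the overlaps were 30.4% and 33.4%, where corrected H3K4me1 alone covered 33.4%. In bulk chromatin, marks on different cells or alleles cannot be told apart.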

How the data were processed

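Peak lists of 22 kinds from K562 cells were used: 17 for H3K4 methylation, 3 corrected, and 1 each for H3K27me3 and H3K9me3, from 25 samples (2 inputs and 4 from mouse stem cells were not used here). Reads were aligned to GRCh38 (hg38), with Bowtie2, SAMtools, bedtools and MACS2 listed in the submitters' processing notes, without versions. Per the deposited files, the authors gave positions for every peak and, in 17 lists, a signal value per peak, whose formula is not given in the sources used here. Read depth is unknown, so no counting interval is given.

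Covered percent was the share of bases of a region under at least 1 peak, with overlapping peaks merged (Python 3.11.15, numpy 2.4.6, scipy 1.17.1, matplotlib 3.10.9). Start sites were those of GENCODE release 44 canonical transcripts, and a peak counted with 1 base of overlap. All regions and 50 kb bins of the genome were measured alike. Targets were compared 2 at a time over antibodies by exact two-sided permutation tests, adjusted by Benjamini-Hochberg over 24 tests at 0.05, which were tested on simulated data. Named genes were the 3 members, all symbol-named genes starting in the window, the MYC network, gasdermins, a cell line check and the 3 closest patterns per member. The members and lists were chosen with earlier results of these data known. Alternatives were other promoter widths, bin sizes, start sites, peak filters, library subsets and leaving out each antibody. Some genes of the cell line check are not reported here. No DNA sequence is printed here.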

Additional observations from a re-analysis of the deposited data

Results flagged for a closer look

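In 27 groups of 4, 5 or 8 antibodies, 9 times a single antibody stood far from the others of its target. The rule was the gap to its nearest neighbour over the whole range. It flags about 1 in 20 groups by chance where values are normally distributed. These values often tie at 100% or 54 bins, where any single departure is flagged, and the groups share lists. The number of flags therefore has no chance rate to be set against. Abcam ab8580 was the high H3K4me3 list in 4 of these, with 61.2% of the window, 81.6% of the PVT1 introns, 100% of the PVT1 promoter and 64.5% of the desert covered, where the group medians were 1.60%, 3.98%, 70.7% and 1.24%. EMD Millipore 05-1338 was the low H3K4me2 list in 3, with peaks in 48 of 54 bins, 72.7% of the PVT1 promoter covered and 0% of the GSDMC promoter. As the only H3K4me2 library of 12 cycles, its antibody and its amplification cannot be told apart. Among H3K4me1 lists, Thermo Fisher 710795 was low for the PVT1 introns at 96.3%, and Cell Signaling Technologies 5326 BF for the GSDMC promoter at 88.4%, both close to the rest in absolute terms.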

How the results depend on the processing

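Of 466 recomputed values, 410 kept their direction and their side of the threshold. All differences below are in percentage points, except bins (a number of bins) and log2 ratios, and p-values come from exact permutation tests. The 4 calls for covered percent of H3K4me1 over H3K4me3 kept their side in all 13 fits that left out 1 antibody. With peaks over 100 kb removed, the excess of H3K4me1 over H3K4me3 was no longer past the threshold for the window (46.8), bins (22.1), PVT1 introns (13.5), GSDMC promoter (59.7) and desert (58.4). Under the same filter these differences changed sign: the log2 window ratio, H3K4me1 minus H3K4me3 (-0.20), H3K4me1 minus H3K4me2 in bins (-2.05), PVT1 introns (-12.5) and PVT1 promoter (19.2), H3K4me2 minus H3K4me3 at the PVT1 promoter (-1.30), and PVT1 introns minus desert (-13.1). This filter alters 7 of the 17 lists in the window, at PVT1 and elsewhere. With 8-cycle libraries only, which leaves fewer antibodies, the 5 called differences missed the threshold (window 61.6, bins 22.8, introns 74.9, GSDMC promoter 68.9, desert 64.5), and 3 changed sign (log2 ratio of H3K4me1 minus H3K4me3 -0.080, H3K4me1 minus H3K4me2 -2.33 at GSDMC and -0.125 in the desert). For the window, introns and desert, 8-cycle H3K4me1 and H3K4me3 lists still did not overlap, so the unadjusted p-values were the smallest possible there. With the first input run only, bins (25.7) and the GSDMC promoter (73.7) missed the threshold, and with bins of 100 kb so did bins (11.5). Peaks at or above their list's median value brought H3K4me1 minus H3K4me3 at the PVT1 promoter past it (43.98), and so did a promoter of 2.5 kb on either side (36.003), which also did so for H3K4me2 minus H3K4me3 at PVT1 (33.5) and MYC (5.34) and turned H3K4me1 minus H3K4me2 at PVT1 to 2.46. A promoter of 0.5 kb turned H3K4me1 minus H3K4me3 at PVT1 to -3.82. Leaving out Abcam ab8580 and EMD Millipore 07-473, chosen after seeing the data, brought 6 further differences past it: H3K4me2 minus H3K4me3 for the window (57.8), bins (38.2), introns (73.6), PVT1 promoter (29.4) and desert (62.0), and H3K4me1 minus H3K4me3 at the PVT1 promoter (23.6). The cause of each other change was not tested.

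Leaving out 1 antibody at a time gave these ranges. H3K4me1 minus H3K4me3 ran from 27.7 to 34.1 in bins, called in 1 of 13 fits (without Abcam ab8580), and from 15.4 to 22.3 at the PVT1 promoter, called in 1. H3K4me2 minus H3K4me3 ran from 38.1 to 65.3 for the window, 26.2 to 32.6 in bins, 53.1 to 78.6 in the introns, 21.2 to 30.5 at the PVT1 promoter, 48.7 to 82.0 at the GSDMC promoter and 42.3 to 70.6 in the desert, each called without Abcam ab8580 or without EMD Millipore 05-1338. H3K4me1 minus H3K4me2 ran from -2.33 to 31.0 at the GSDMC promoter and from -0.125 to 28.2 in the desert, negative without EMD Millipore 05-1338. No paired analysis was possible because, between targets, replicate numbers only follow the order of the samples and each library used another antibody. Unknown read depth limits every absence of a peak.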
